A study of Mus musculus with 8 samples.

Results

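The mouse array used here carries probes for stretches of the genome that lie outside the genes its design names, and these intergenic transcript probes are described across 3 hypothalamic nuclei. Each is named by its region and by a strand letter, F or R. A probe was included where all its arrays of at least 1 nucleus carried the scanner's flag for a signal well above background. That held for 11747 of 16181 intergenic probes, on an array of 55681 probes in all, and the 11747 stand for 4219 of 4607 region and strand names.

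Genetically labelled neurons of the arcuate nucleus (Arc, 2 arrays), the ventromedial nucleus (VMH, 3 arrays) and the dorsomedial nucleus (DMH, 3 arrays) were compared. Every sample came from 2-month-old female mice that carried Nkx2-1-CreERT2 and Rosa-ZsGreen and had received tamoxifen, so Cre activity in the Nkx2-1 lineage set which neurons were green. Green neurons were cut out by laser and pooled, and their cDNA was labelled chemically with Cy5. There was no untreated or unlabelled control group, the labels tie no sample to an animal, and p-values therefore measure the spread between samples, which may be technical.

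Much of a mammalian genome between protein-coding genes is transcribed. Some of this output consists of long intergenic noncoding RNAs, which are often spliced and polyadenylated like messenger RNAs, frequently lie beside transcription factor genes, and tend to be restricted to fewer cell types. Other intergenic signal comes from unannotated ends of known genes, from transcripts that start in both directions at promoters and enhancers, and from primary transcripts of microRNAs. Arc, VMH and DMH neurons take part in the control of feeding, energy use and reproduction.

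A few probes are shown because large or repeated differences rest on them. Each is 60 bases long and is written 5′ to 3′ on the strand of its name, with its mm9 position. The first 6 lie in a row about 56 kb from Cbln1, under the overlapping names chr8:89996710-90049453_F and chr8:90048940-90049461_F. Capitals mark the 45 bases that a probe shares with its partner under the other name, so the 6 probes are not independent readings.
chr8:90049267-90049326, plus strand: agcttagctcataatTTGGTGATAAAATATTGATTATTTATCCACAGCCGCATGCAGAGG
chr8:90049282-90049341, plus strand: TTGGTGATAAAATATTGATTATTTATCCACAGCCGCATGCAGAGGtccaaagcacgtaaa
chr8:90049327-90049386, plus strand: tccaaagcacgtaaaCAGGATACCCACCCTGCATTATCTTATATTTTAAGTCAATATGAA
chr8:90049342-90049401, plus strand: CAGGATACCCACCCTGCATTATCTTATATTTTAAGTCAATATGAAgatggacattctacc
chr8:90049387-90049446, plus strand: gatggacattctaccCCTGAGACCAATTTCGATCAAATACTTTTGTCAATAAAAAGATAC
chr8:90049402-90049461, plus strand: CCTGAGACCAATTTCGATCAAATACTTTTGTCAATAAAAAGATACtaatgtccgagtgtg

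The next pair lies on opposite strands beside Pou3f3, under the names chr1:42758928-42771337_F and chr1:42759171-42771337_R. Capitals mark the 23 bases of chr1:42759129-42759151 that the F probe reads and the R probe reads in reverse complement. No position is given for the R probe, and the shared bases end before the first base of the region in its name.
chr1:42759129-42759188, plus strand: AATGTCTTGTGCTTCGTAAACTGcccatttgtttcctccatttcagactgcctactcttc
R probe of chr1:42759171-42771337: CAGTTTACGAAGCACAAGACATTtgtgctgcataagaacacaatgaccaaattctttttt

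The last set gives 4 probes whose differences were among the largest for a nucleus or stood under every setting tried, and a neighbouring pair near Cbln1 that differed from each other. No letters are capitalised, since no part of them was singled out.
chr14:65205745-65205804, minus strand, higher in VMH: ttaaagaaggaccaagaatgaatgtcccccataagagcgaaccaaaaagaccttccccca
chr7:49836171-49836230, plus strand, higher in DMH: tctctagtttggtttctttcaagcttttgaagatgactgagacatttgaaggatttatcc
chr6:122747841-122747900, plus strand, higher in Arc: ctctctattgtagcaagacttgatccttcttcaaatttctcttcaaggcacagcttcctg
chr2:78767918-78767977, minus strand, lower in Arc: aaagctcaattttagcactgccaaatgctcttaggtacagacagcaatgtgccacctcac
chr8:90014451-90014510, minus strand, no call: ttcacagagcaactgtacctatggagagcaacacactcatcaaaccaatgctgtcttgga
chr8:90014511-90014570, minus strand, higher in VMH: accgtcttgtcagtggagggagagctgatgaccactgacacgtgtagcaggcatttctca

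Values below are log2 of the processed Cy5 signal minus the log2 75th percentile of the array, so 0 is the level of that percentile. A difference sets 1 nucleus against the mean of the other 2 nuclei, is given in log2 with its standard error (SE), and comes from a limma fit to all 8 arrays. The threshold was a Benjamini-Hochberg adjusted p of 0.05 over all 41467 probes fitted. Where arrays on the low side were not well above background, the log2 difference is set in part by background, and the change is also written as "at least N-fold", with those arrays raised to the lowest signal that was well above background on the same array.

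The marker genes of the 3 nuclei mostly followed the labels. In DMH 13 of 15 listed DMH neuron markers were higher, while VMH was higher for 12 of its 14 fitted markers and Arc for 9 of its 13. Of the 13 fitted Arc markers, 1 was called higher in VMH and 5 lower there. These lists were drawn up with results of these data known, so this is a check of labels and not independent evidence. Markers of other cells were present in every sample. The summed signal of 9 microglia markers, in units of the 75th percentile, was 212 to 243 on Arc arrays, 160 to 189 on VMH arrays and 112 to 150 on DMH arrays, and that of 9 fitted astrocyte markers was 48.9 to 68.0 over all arrays. None of the 9 microglia markers passed the limma threshold in any nucleus (4, 2 and 2 had an unadjusted p under 0.05 in DMH, VMH and Arc), and the same was true of the 11 oligodendrocyte markers (0, 2 and 2) and the 8 endothelial markers (1 in each nucleus). Of the other lists, Gjb6 of the astrocyte markers was higher and Col23a1 of the tanycyte markers lower in DMH, Crym of the tanycyte markers was higher in VMH, and 2 of 9 neuron markers passed, Nefl higher in VMH and Syt1 lower in Arc. The part of other cells in the differences below was not tested.

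Intergenic probes were detected slightly less often than the rest of the array: 72.6% of them passed the filter, against 75.3% of other probes. On single arrays 70.4% to 77.4% of the 16181 intergenic probes carried the flag, beside 72.4% to 78.7% of all probes. On all 8 arrays 9775 intergenic probes carried it. A further 1008 entered through 2 nuclei and 964 through 1 nucleus, 496 of them through DMH, 293 through Arc and 175 through VMH. Detection tended to be higher on the DMH arrays, at 74.2% to 77.4% of intergenic probes. It was 70.4% to 72.9% on Arc arrays and 70.7% to 74.3% on VMH arrays, where replicate 3 was slightly above DMH replicate 2. The part of this gap in the DMH share was not tested. The flag is not a fixed signal: the lowest mean of a member in its best nucleus was -4.25, and the highest mean of a probe left out was -1.87. Probes that entered had a median GC content of 45.0%, intergenic probes left out 38.3%, and all other probes 41.7%.

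The position of a probe in a gene could be judged only from other probes on the same array, since no annotation of the mm9 build was used here. Of 11646 fitted members with a position, 539 (4.63%) lay between 2 probes of the same named gene, so these regions lie within the span of a gene. For 8905 a fitted named gene lay within 100 kb, at a median distance of 21.9 kb. RefSeq promoter windows (assembly GRCm38.p6, matched by letters alone) held the whole probe for 144 members, or 1.23%, in 35 matches on the strand of a noncoding gene, 37 opposite one, 33 on the strand of a protein-coding gene and 43 opposite one. The letters AATAAA or ATTAAA, the usual signals for cutting and polyadenylation, occurred in 5.23% of members on their own strand and in 4.11% on the other strand, with a probe that held both counted once. Among the other probes of the array the shares were 16.7% and 6.55%.

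Few intergenic probes differed between nuclei. In DMH, 31 of 11742 fitted members were higher and 22 lower, where 0.374% and 0.388% of all fitted probes passed in those directions. In VMH 29 were higher and 19 lower, against 0.678% and 0.362% of all probes, and in Arc 8 were higher and 20 lower, against 0.135% and 0.335%. The members' own shares were 0.264% and 0.187% in DMH, 0.247% and 0.162% in VMH, and 0.0681% and 0.170% in Arc, in each case under the share of all probes. Together 103 probes of 86 names were called for at least 1 nucleus. In these pooled samples, fewer cells of a type and less RNA per cell cannot be told apart.

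These counts moved with the arrays used, and the shares of all probes called in the same refits are not given here. Without DMH replicate 1 the calls in DMH fell to 5 higher and 2 lower, and without VMH replicate 1 those in VMH fell to 11 and 3. Leaving out Arc replicate 2 gave 65 higher calls in Arc, 64 lower calls in DMH and 42 lower calls in VMH. With the row of the slide as a block, 11 and 3 passed in DMH, 20 and 6 in VMH, and 4 and 9 in Arc.

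Between pairs of nuclei, 27 members were higher and 37 lower in DMH than in VMH, beside 0.388% and 0.598% of all probes. DMH against Arc gave 23 higher and 8 lower, beside 0.287% and 0.147%, and VMH against Arc gave 29 higher and 15 lower, beside 0.535% and 0.256%. The 3 comparisons share arrays. A member that entered through a single nucleus was nearly bound to be high there, and 11 members higher in DMH, 11 higher in VMH and 3 higher in Arc had entered through 1 nucleus. Where such a member is named below as having entered through a nucleus alone, the filter favoured its direction, and its difference, p and fits describe it without adding support for that direction. Entry through 2 nuclei likewise favoured a low value in the third. Of members that entered so, 9 were lower and 0 higher in Arc, 4 and 5 in DMH, and 5 and 4 in VMH. The same limit holds for any fall below whose nucleus was at background.

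A difference shared by several neighbouring probes lay near Cbln1, which encodes a secreted protein that organises synapses and is a VMH marker here. All 6 tiled F probes printed above were higher in VMH, with differences from 2.99 to 5.16. The probe at chr8:90049342-90049401 read -0.32, -1.07 and -1.19 on the VMH arrays, -6.19 and -6.16 on the Arc arrays, and -6.93, -6.52 and -4.15 on the DMH arrays. Only the VMH arrays were well above background, so it entered through VMH alone. Its difference was 5.16 ± 0.61 (SE), at least 10.4-fold, with a limma adjusted p of 0.0125, and the call stood in 5 of 8 fits that each left out an array, the exceptions being the fits without VMH replicate 1, 2 or 3, where it was 4.89 to 5.59 over all 8.

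The tiled probe at chr8:90049327-90049386 was well above background on all 8 arrays and so could be measured in each nucleus. It read 0.89, 0.11 and 0.18 in VMH, -3.58 and -3.52 in Arc, and -3.95, -3.26 and -2.17 in DMH. The VMH arrays lay more than 2 log2 units above every other array. The difference was 3.73 ± 0.40 (SE), or 13.3-fold, with a limma adjusted p of 0.0089. Of the 8 fits that left out an array, the call was lost in that without VMH replicate 1, at an adjusted p of 0.0505. It was also lost with the replicate number as a block and when a fold of at least 2 was tested.

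Cbln1 itself, on the opposite strand, read 2.57, 2.24 and 2.54 in VMH, -3.51 and -4.11 in Arc, and -1.68, -1.54 and -2.53 in DMH, a difference of 5.31 ± 0.28 (SE), at least 39.4-fold, with a limma adjusted p of 0.00081. The tiled stretch and Cbln1 were thus both higher in VMH.

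The R-strand region chr8:90000619-90061169_R lies nearer, on the strand of Cbln1. Its probe at chr8:90014511-90014570, 21.7 kb from the Cbln1 probe, read -0.29, -0.19 and -0.48 in VMH, -3.09 and -2.85 in Arc, and -3.14, -2.84 and -2.54 in DMH. The difference was 2.59 ± 0.20 (SE) with a limma adjusted p of 0.0031, and its call stood in all 19 settings that could be run. The probe that abuts it, at chr8:90014451-90014510, differed by only 0.29 ± 0.27 (SE; adjusted p 0.725), and all 8 of its arrays lay between -0.86 and 0.02. A further pair at 25.6 and 25.7 kb differed by 0.18 and -0.09. Beyond the tiled stretch, 5 F probes at 65.8 to 66.4 kb differed by -0.15 to 1.17, and none was called.

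**Figure D1:**
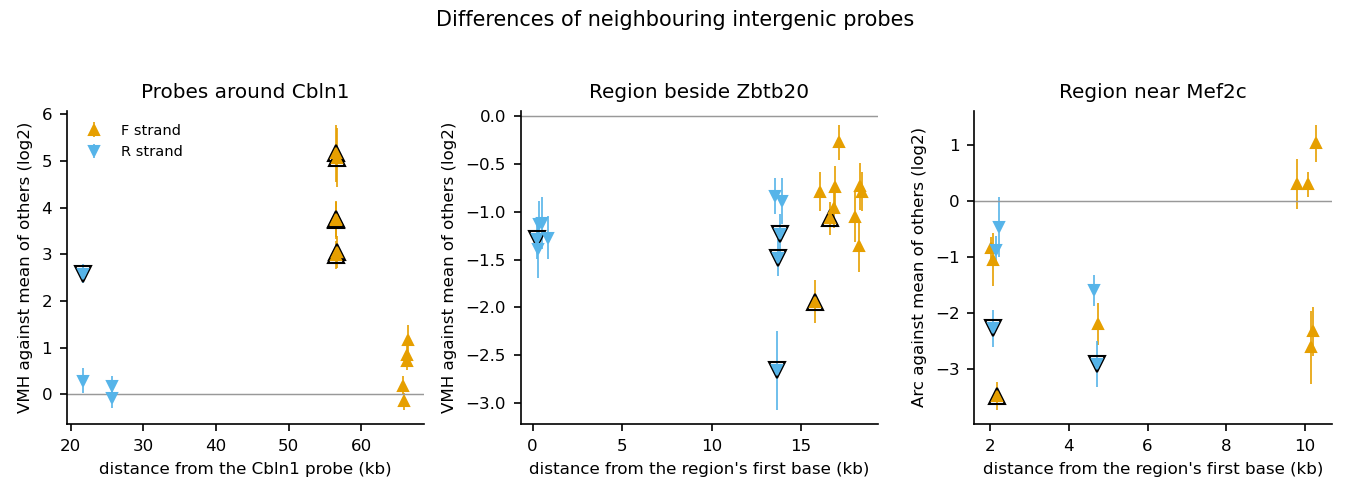
Differences with SE bars (vertical axis, log2) for every fitted intergenic probe within 100 kb of the Cbln1 probe (left, VMH against the mean of the others, by distance in kb) and in the regions beside Zbtb20 (middle, VMH) and near Mef2c (right, Arc), by distance from the region's first base. Triangles point up for F and down for R, and black outlines mark adjusted p under 0.05. The 6 tiled probes stand at 2.99 to 5.16 and the 5 F probes farther out at -0.15 to 1.17, and all 20 probes beside Zbtb20 lie below 0.

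Other large VMH differences lay apart from any called gene within 100 kb. The R probe at chr14:65205745-65205804, with Kif13b the nearest named gene at 219 kb, read -0.51, -0.62 and -2.33 in VMH, -6.16 and -6.18 in Arc, and -6.93, -6.52 and -5.21 in DMH. No Arc or DMH array was well above background, so it entered through VMH alone. The difference was 5.04 ± 0.53 (SE), at least 8.64-fold, with a limma adjusted p of 0.0084, and the call stood without any of the 8 arrays in turn. The mean over the probes of its region differed by 2.63 (adjusted p 0.0370).

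The F region chr11:55315017-55322092_F lies 6 kb from G3bp1, which encodes an RNA-binding protein of stress granules, and 8 kb from Glra1, a subunit of the glycine receptor. Its probe at chr11:55320080-55320139 read 1.55, 1.53 and 1.77 in VMH, -0.49 and -1.97 in Arc, and -0.98, -1.66 and -1.23 in DMH. The VMH arrays stood apart, at a difference of 2.88 ± 0.34 (SE; limma adjusted p 0.0132). The call stood in 5 of 8 fits that left out an array and was lost without any VMH array, at differences of 2.51 to 3.25. A second probe at chr11:55320236-55320295 differed by 2.94 ± 0.41 (SE; adjusted p 0.0219), and all 5 fitted probes of the name were positive, from 0.63 to 2.94. That second call was lost in 5 of the 8 fits. Glra1, on the opposite strand, differed by 3.03 ± 0.55 (SE) and missed the threshold, at an adjusted p of 0.0549.

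The remaining VMH probes of the naming rule were higher by 3.28 to 4.30, and each had entered through VMH alone. The R probe of chr9:24292762-24307562, whose letters lie in the promoter window of the noncoding gene LOC115487153 on the same strand, differed by 4.30 ± 0.58 (SE), at least 4.30-fold, with a limma adjusted p of 0.0193. It read -1.20, -1.43 and -3.85 in VMH and -6.21 or lower on the other 5 arrays. Of the 8 fits that left out an array, its call stood only in that without VMH replicate 3, and the differences were 3.82 to 5.15. The F probe of chr8:111766396-111772271 differed by 4.14 ± 0.73 (SE; adjusted p 0.0498), at least 6.14-fold, and DMH replicate 3, at -2.83, was the only DMH array well above background, beside -5.43 and -6.51. Of the 8 fits that left out an array, its call stood only in that without DMH replicate 3, and the differences were 3.74 to 4.66. Pmfbp1, 297 kb away, was at least 4.97-fold higher in VMH (limma adjusted p 0.0234). The regions chr3:148884650-148888709_R, chr11:6421951-6429173_R and chr17:87674225-87682154_F differed by 3.42, 3.32 and 3.28, and the call stood in 1, 8 and 3 of 8 fits. All 3 were dim outside VMH, at least 3.55-fold, 2.62-fold and 3.26-fold lower there.

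Among members lower in VMH, the F probe at chr7:49836171-49836230 was also higher in DMH, the nucleus through which alone it had entered. Its values were -1.99, -1.94 and -1.98 in DMH, -3.99 and -3.72 in Arc, and -6.26, -6.01 and -5.70 in VMH. The 3 nuclei did not overlap, with DMH highest and VMH at background. It was 2.95 ± 0.19 (SE) higher in DMH, at least 4.14-fold (limma adjusted p 0.0025), and fell by 3.08 ± 0.19 (SE) in VMH, at least 2.44-fold (limma adjusted p 0.0011). Both calls stood in all 18 settings that could be run. A probe that the array names Ckap4 lay 0.133 kb away on the opposite strand and differed by 0.33 in DMH and -0.61 in VMH, neither called.

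The R probe of chr8:48476637-48492537 was -2.67 ± 0.24 (SE) in VMH, at least 1.88-fold lower, with a limma adjusted p of 0.0051 that stayed under the threshold without any array in turn. It read -3.10 and -2.996 in Arc, -3.30, -3.97 and -3.30 in DMH, and -6.14, -5.61 and -6.13 in VMH, where no array was well above background. Its 4 other fitted probes did not share the difference: 2 were lower and 2 higher, and the mean over the name was -0.58. The F probe of chr16:64765397-64765884 fell by 3.47 ± 0.58 (SE; adjusted p 0.0407), at least 2.54-fold, but its DMH arrays ranged from -5.38 to -2.54 and its call stood in 2 of 8 fits. Near Ptpn9, a phosphatase gene 1.40 kb away, the abutting F probes of chr9:56911160-56911452 fell by 2.19 (at least 4.05-fold) and 1.56 in VMH, and as a mean over the name by 1.87 (adjusted p 0.0026), with calls in 2 and 0 of the 8 fits.

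In DMH the largest difference lay beside Pou3f3, a POU-domain transcription factor gene of neural development. The R probe printed above read -1.27, -2.84 and -1.48 in DMH, -6.16 and -6.17 in Arc, and -5.22, -6.19 and -6.21 in VMH. No Arc or VMH array was well above background, so it entered through DMH alone. The difference was 4.16 ± 0.41 (SE), at least 4.73-fold, with a limma adjusted p of 0.0110. The call was lost without DMH replicate 1, at an adjusted p of 0.0567, and when a fold of at least 2 was tested. The F probe that shares 23 bases with it on the other strand read -0.89, -1.25 and -0.82 in DMH, -3.36 and -3.74 in Arc, and -3.90, -6.38 and -4.31 in VMH. Its difference was 3.22 ± 0.53 (SE; limma adjusted p 0.0475), at least 7.10-fold, and was called in 1 of 8 fits that left out an array, at 2.84 to 3.46.

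The means over these names differed by 2.52 on R (adjusted p 0.0262) and 2.62 on F (adjusted p 0.0458). Pou3f3 itself, whose probe lies 3.03 kb from the F probe on the same strand, differed by 0.85 ± 0.36 (SE; adjusted p 0.317). It read -1.61, -1.30 and -2.13 in DMH and -3.15 to -1.83 elsewhere, so its arrays overlapped.

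The R region chr11:53592946-53637922_R, 5.08 kb from the probe of Irf1, an interferon-response transcription factor, was nearly as much higher in DMH. Its called probe read -2.08, -1.94 and -2.18 in DMH, -6.20 and -6.24 in Arc, and -6.41, -6.27 and -5.16 in VMH. The DMH arrays lay within 0.3 log2 units of each other and no other array was well above background, so the probe entered through DMH alone. The difference was 4.02 ± 0.30 (SE), at least 4.11-fold, with a limma adjusted p of 0.0032, and its call stood in all 18 settings. All 4 other fitted probes of the name were positive in DMH, and their mean with it differed by 1.66 (adjusted p 0.0135). Irf1, on the opposite strand, differed by 1.52 ± 0.46 (SE; adjusted p 0.207).

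The R probe of chr3:131128972-131163308 differed by 3.08 ± 0.23 (SE), at least 1.91-fold, with a limma adjusted p of 0.0032 that stood without any array in turn. It read -3.61, -2.75 and -3.17 in DMH and -5.96 or lower on the other 5 arrays, and had entered through DMH alone. No named gene lay within 100 kb.

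Far from any called gene, near Tenm3, the gene of teneurin 3, an adhesion protein in neural wiring, 3 regions with called probes fell within 10.2 kb of each other. Their probes lay 382 to 392 kb from the Tenm3 probe. The R probe of chr8:49866197-49866841 differed by 3.38 ± 0.52 (SE; limma adjusted p 0.0392), at least 4.39-fold, having entered through DMH alone, and those of chr8:49853937-49874087_R and chr8:49872686-49872913_F, named after their values were seen, by 1.62 and 1.51. Of all 16 members in that span, 12 were above 0 in DMH, with a median of 0.88. The calls stood in only 1, 1 and 2 of 8 fits that left out an array. Tenm3 differed by 2.21 ± 0.66 (SE; adjusted p 0.205), at least 3.66-fold.

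The R region chr19:19005109-19008657_R, also named after its values were seen, has probes 1.69 and 1.77 kb from that of Rorb, a nuclear receptor gene on the same strand. Its probe at chr19:19005110-19005169 read 1.97, 1.88 and 2.09 in DMH, 0.06 and -0.25 in Arc, and -0.88, -0.37 and -0.01 in VMH. The DMH arrays stood apart, at a difference of 2.24 ± 0.23 (SE; limma adjusted p 0.0136). The probe at chr19:19005198-19005257 differed by 2.38 ± 0.28 (SE; adjusted p 0.0179). Rorb was higher in DMH by 1.87 ± 0.26 (SE; adjusted p 0.0293), at 3.68, 4.36 and 4.25 against 1.43 to 2.59 on the other arrays. Calls of both region probes were lost without DMH replicate 1, 2 or 3, and over all 8 fits the differences were 2.12 to 2.34 and 2.22 to 2.51. Rorb is also on the list of paraventricular and suprachiasmatic neuron markers, of which it alone of 6 fitted passed, with Crh and Sim1 below the filter; the list's summed signal was 15.1 to 23.3 on DMH arrays, 9.68 to 11.8 on Arc arrays and 4.55 to 7.34 on VMH arrays, and its part in this result was not tested.

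The regions beside Zbtb20, a gene of a zinc finger transcriptional repressor, held probes called on both strands. All 20 fitted probes of chr16:43623581-43642715, 10 on each strand, were above 0 in DMH and below 0 in VMH. The F probes ranged from 0.14 to 1.35 in DMH and from -1.94 to -0.27 in VMH, and the R probes from 0.31 to 2.47 and from -2.66 to -0.83. Called were 3 in DMH and 6 in VMH, 7 probes in all, and the other 13 did not pass. The F probe at chr16:43639338-43639397 read -1.23, -1.80 and -1.65 in VMH against 0.14 to 0.72 on all other arrays, a fall of 1.94 ± 0.23 (SE; limma adjusted p 0.0118), and lost its call without VMH replicate 2 or 3 and when a fold of at least 2 was tested. The other 8 calls stood in 0 to 3 of the 8 fits.

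As means over the name, the R region differed by 1.08 in DMH (adjusted p 0.0300) and -1.33 in VMH (adjusted p 0.0091), and the F region by 0.87 (adjusted p 0.0544) and -0.97 (adjusted p 0.0270). The Zbtb20 probe, 4.76 to 21.4 kb from the called probes and on the plus strand, read 3.55, 3.31 and 3.79 in DMH, 2.34, 1.64 and 2.36 in VMH, and 3.29 and 2.92 in Arc. It did not pass, at 0.94 ± 0.24 (SE; adjusted p 0.161) in DMH and -1.21 ± 0.24 (SE; adjusted p 0.0762) in VMH.

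The largest fall in DMH lay on R in the region chr15:61984389-62102500_R, which spans a probe of the long noncoding RNA gene Pvt1 on the other strand. Its probe at chr15:62084624-62084683 read -6.85, -6.45 and -4.33 in DMH, -2.44 and -3.26 in Arc, and -1.29, -1.24 and -1.39 in VMH. DMH was at background on all 3 arrays and the VMH arrays were the highest. It fell by 3.80 ± 0.55 (SE) in DMH, at least 5.43-fold, with a limma adjusted p of 0.0357. All 9 other fitted probes of the name were also lower in DMH and higher in VMH, and their mean with it was -1.44 in DMH (adjusted p 0.0401) and 1.35 in VMH (adjusted p 0.0396). Pvt1 differed by -0.41 in DMH and -0.13 in VMH (adjusted p 0.495 and 0.895). The call in DMH stood in 2 of 8 fits that left out an array, at -4.57 to -3.31. The R probe of chr2:32950586-32984936 fell by 3.52 ± 0.48 (SE; adjusted p 0.0279) in DMH, at least 4.29-fold, and all 6 other probes of its name were lower too. A pair of F probes of chrX:58387887-58429166, 284 kb from Sox3, fell by 2.31 and 2.06. These calls stood in 3, 1 and 1 of the 8 fits.

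A gene-poor stretch between Igsf11 and Lsamp, both genes of neural cell adhesion proteins, held 3 called regions, singled out after their values were seen. The probe of chr16:40283097-40284822_F was 1.46 higher in VMH and fell by 1.36 in DMH, chr16:39984031-40081556_R was 1.18 higher in VMH, and chr16:40469578-40469759_F fell by 1.77 in DMH. Their calls stood in 1, 0, 1 and 6 of 8 fits that left out an array, in that order. The nearest lay 958 kb from the probe of Igsf11.

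In Arc, calls were fewer and 20 of 28 were downward. At an unadjusted limma p under 0.05 the lean was the other way, with 1076 members higher in Arc and 577 lower. Among 29725 other probes the counts were 2191 and 2329. The median difference was 0.085 over fitted members and 0.0052 over other probes. The region near Mef2c, a transcription factor gene of neurons and muscle, held 3 of the downward calls. The F probe at chr13:83869868-83869927, 96.0 kb from the Mef2c probe, read -3.71 and -3.34 in Arc, -0.18, -0.37 and -0.01 in VMH, and 0.09, -0.23 and 0.45 in DMH. Both Arc arrays lay about 3 log2 units below the rest. It fell by 3.48 ± 0.25 (SE), or 11.2-fold, with a limma adjusted p of 0.0023, and the call stood in all 19 settings. On the R strand 2 further probes fell by 2.91 and 2.28, the latter at background in Arc and only at least 1.02-fold lower, with each call standing in 1 of 8 fits that left out an array, and all 5 fitted R probes were below 0 in Arc, from -2.91 to -0.47. On F the 9 probes ranged from -3.48 to 1.03 and 3 were above 0. Mef2c itself was at 0.51 ± 0.38 (SE; adjusted p 0.578), in the other direction.

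Nr2f1 and Nr2f2, the genes of the COUP-TF nuclear receptors, fell in Arc, and so did 3 intergenic probes 41.8 to 138 kb from them. The R probe at chr13:78370483-78370542, 41.8 kb from the Nr2f1 probe and on its strand, read -3.43 and -3.38 in Arc, 0.25, -1.12 and -0.27 in VMH, and 0.47, 0.21 and 0.08 in DMH. It fell by 3.34 ± 0.34 (SE) in Arc, or 10.1-fold (limma adjusted p 0.0109), with the call standing in all 8 fits, and a second probe fell by 2.77 ± 0.28 (SE). The other 3 fitted R probes of the name were lower in Arc without a call, the mean over all 5 was -1.90 (adjusted p 0.0146), and neither of the 2 fitted F probes of the region was called in Arc. Both called probes were also higher in DMH, by 2.14 and 1.81, calls that stood in 2 and 1 of the 8 fits. Nr2f1 fell by 2.94 ± 0.21 (SE; adjusted p 0.0023) in Arc and rose by 2.00 ± 0.19 (SE; adjusted p 0.0090) in DMH.

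The Nr2f2 neighbour, chr7:77555482-77634858_F, was named after its values were seen, since it lies 138 kb away and outside the naming rule. It read -4.20 and -4.89 in Arc, -0.65, -0.52 and -1.14 in VMH, and -1.99, -2.39 and -2.43 in DMH. The 3 nuclei did not overlap. No Arc array was well above background, so the filter favoured its fall in Arc. It fell by 3.03 in Arc, at least 5.62-fold (limma adjusted p 0.0076), and rose by 2.64 in VMH, at least 5.16-fold (adjusted p 0.0060), and both calls stood in all 8 fits. Nr2f2, on the opposite strand, was at least 27.4-fold lower in Arc (limma adjusted p 0.00018), with its Arc arrays at background, at -6.11 and -6.11.

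The largest fall in Arc was that of the R probe at chr2:78767918-78767977, 7.37 kb from Ube2e3, a ubiquitin-conjugating enzyme gene. It read -4.09 and -6.10 in Arc, -0.92, -0.35 and 1.05 in VMH, and -0.83, 0.34 and 0.13 in DMH. It fell by 4.99 ± 0.67 (SE), at least 15.1-fold, with a limma adjusted p of 0.0319 that stood in 1 of 8 fits. All 3 other fitted probes of the name were lower too, and their mean with it was -2.54 (adjusted p 0.0123). The F probe of chr14:65785477-65815777 fell by 4.16 ± 0.56 (SE; adjusted p 0.0326), at least 4.76-fold, and the F probe of chr15:73227424-73257474 fell by 3.51 ± 0.50 (SE; adjusted p 0.0351), at least 11.4-fold, with 2 of 8 fits holding for each.

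Upward in Arc, the F probe at chr6:122747841-122747900, 41.7 kb from Foxj2, read -1.52 and -1.91 in Arc, -6.08, -6.00 and -4.90 in VMH, and -6.67, -5.34 and -5.44 in DMH. No VMH or DMH array was well above background, so it entered through Arc alone. The difference was 4.02 ± 0.45 (SE), at least 6.26-fold (limma adjusted p 0.0165), and the call was lost without Arc replicate 1 and when a fold of at least 2 was tested. Of its 4 other fitted probes 2 were positive. The R probe of chr10:5956284-5956943 differed by 3.82 ± 0.35 (SE), at least 3.62-fold (limma adjusted p 0.0076), and stood in all 8 fits, although its Arc arrays were -1.82 and -3.19 and it too had entered through Arc alone.

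The F probe of chr10:62347876-62374346 was well above background on all 8 arrays and differed by 2.21 ± 0.24 (SE; adjusted p 0.0145), at -0.70 and -0.38 in Arc against -3.11 to -2.55 elsewhere. Its call also stood in all 8 fits. It lies 48.1 kb from Tet1, a gene of DNA demethylation, which differed by 0.24 ± 0.42 (SE) in Arc. Other higher calls in Arc were less steady. The R probes of chr1:137503023-137625604 (dim on some arrays, with no bound given here) and chrX:92151384-92157256 differed by 3.36 and 2.51, and each call stood in 1 of 8 fits. The R probe of chr15:51829797-51844247 and F probes of chr9:56911160-56911452 and chr3:52206874-52207385 differed by 1.41, 2.15 and 1.41, with calls in 0 of 8 fits.

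Other probes of a called name mostly shared its direction at smaller sizes. Most of the others had the called sign for 36 of 51 called probes in DMH with any, 40 of 46 in VMH and 22 of 27 in Arc, and all of them had it for 29, 32 and 15. The other fitted probes of its name differed in the called direction by a median of 0.58 in DMH, 0.79 in VMH and 0.47 in Arc, where the called probes' median sizes were 1.96, 2.00 and 2.81. Called probes were chosen for their size, so this gap is a description. The 53, 48 and 28 called probes came from 47, 38 and 26 names, so some names count more than once. How often signs agree between probes of 1 name over all members is not given here. No name held calls in both directions. When the probes of each name were averaged before the fit, an alternative chosen after the data were seen, 10 names were higher and 11 lower in DMH, 16 and 9 in VMH, and 6 and 6 in Arc, of 4218 intergenic names. The background shares were 0.471% and 0.544% of all names in DMH, 1.03% and 0.558% in VMH, and 0.230% and 0.482% in Arc.

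The spotting itself repeated well. The same 60 letters were printed under an intergenic name and another name for 76 probes, and over the 49 such pairs that were fitted the differences correlated at r = 0.96 in DMH, 0.86 in VMH and 0.94 in Arc. The median gap between twins was 0.064, 0.068 and 0.081 log2 units, and the largest 1.24, 1.84 and 0.91. Such a twin is chr4:114585803-114588898_F, which has the letters of the Foxd2os probe: it differed by 2.00 in DMH and Foxd2os by 1.98, neither called and both set in part by VMH arrays at background. Foxd2os is a noncoding gene beside Foxd2, and Foxd2, a DMH marker 9.89 kb away, was at least 17.4-fold higher (limma adjusted p 0.0371).

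Likeness fell quickly with distance. Overlapping probes of the same strand, shifted by at most 30 bases, correlated at r = 0.84, 0.84 and 0.72 in DMH, VMH and Arc over 202 pairs. Probes of 1 name whose starts lay 60 to 200 bases apart correlated at 0.36, 0.36 and 0.28 over 6731 pairs, and those 200 to 2000 bases apart at 0.19, 0.21 and 0.095 over 5392 pairs. All these pairs share arrays and RNA, and neighbouring letters share base composition.

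Opposite strands gave an intermediate picture. There were 1724 pairs of F and R probes that overlapped with a shift of at most 30 bases. Of their left and right probes, 63.6% and 63.5% were well above background on all 8 arrays. Both probes were so in 867 pairs (50.3%, beside 52.5% of 278 overlapping pairs on the same strand), only 1 in 457 and neither in 400. Over the 1109 pairs fitted the differences correlated at r = 0.52 in DMH, 0.55 in VMH and 0.47 in Arc. In 11 pairs a probe was called, the partner had the same sign in all 11, and in none were both called. The pair printed above beside Pou3f3, both called in DMH, shares only 23 bases and was not among these pairs. Whether the labelled cDNA kept the strand of the RNA is not given in the sources used here, so the strand of a transcript cannot be told from the strand of its probe.

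**Figure D2:**
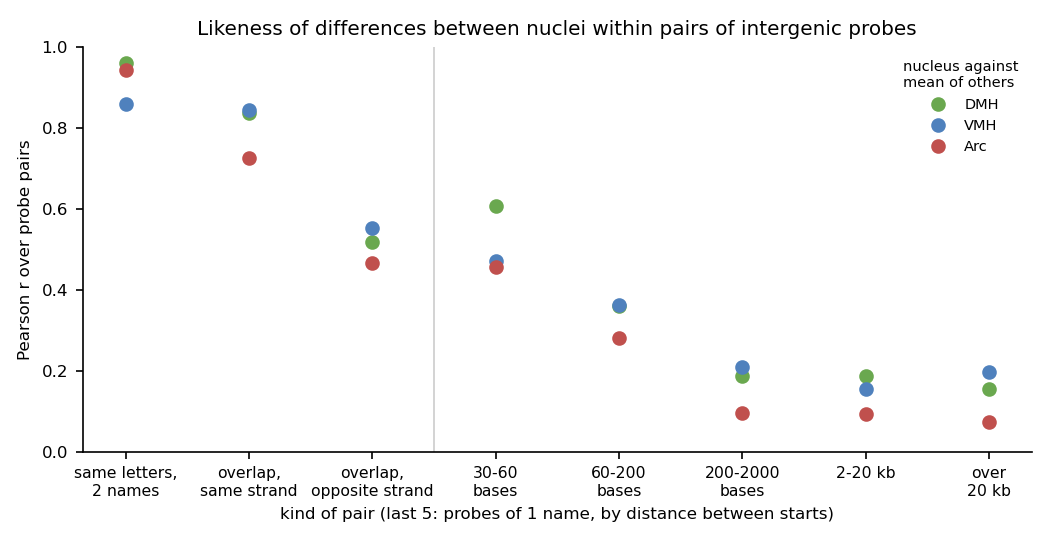
Pearson correlation of the differences between nuclei over pairs of intergenic probes (vertical axis) for 8 kinds of pair (horizontal axis), with a point for each nucleus. The first kind pairs probes of the same letters, the next 2 overlapping probes, and the last 5 probes of 1 name by distance. Values start at 0.86 to 0.96 and end at 0.074 to 0.20 beyond 20 kb.

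Members and the nearest named gene were alike where their probes overlapped on the same strand (centres within 0.06 kb), and less so farther away. The differences of 48 such members and their genes correlated at r = 0.94 in DMH, 0.90 in VMH and 0.84 in Arc. Some of these pairs, such as that of Foxd2os, are the twins of the same letters above, so these values describe in part repeated spotting. Over 17 members that overlapped the gene's probe on the opposite strand, r was 0.15, 0.89 and 0.12. At 0.06 to 2 kb the values were 0.21, 0.22 and -0.044 over 326 members on the gene's strand and 0.30, 0.14 and 0.078 over 404 on the other strand. From 2 to 100 kb, by distance and strand, r was 0.012 to 0.33, the highest in VMH at 50 to 100 kb on the opposite strand, where 6 of 8 called members had a called gene and Spearman's rho was 0.12. Among members called in DMH 38 had a fitted named gene within 100 kb, which had the same sign for 28 and was itself called for 4 (Nr2f1 and Rorb, 2 probes each). In VMH the gene had the same sign for 27 of 39 and was called for 7, all beside Cbln1, and in Arc for 13 of 25 and 2, both beside Nr2f1. These members are not independent. In VMH the 7 beside Cbln1 and the 6 beside Zbtb20 all had the sign of their gene and count once each among the 27. Over all 8905 members with such a gene, signs agreed for 52.1%, 54.8% and 51.6%, and the gene was called for 0.595%, 1.03% and 0.809%. No gene was called in the direction opposite to its member.

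**Figure D3:**
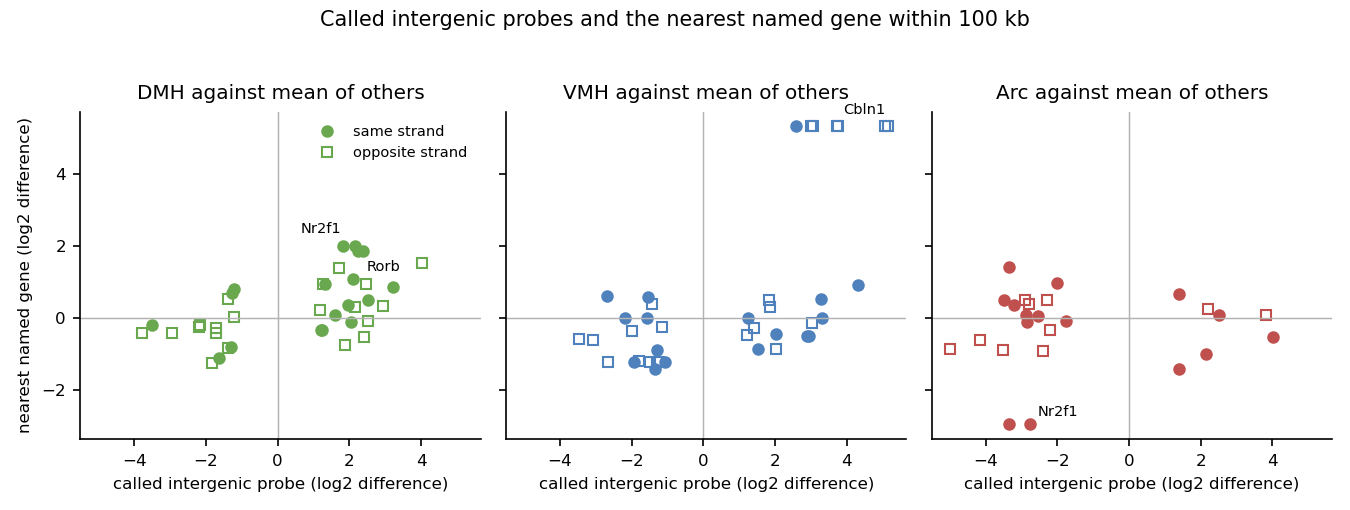
Difference of the nearest named gene within 100 kb (vertical axis, log2) against that of each called intergenic probe (horizontal axis, log2), by nucleus. Filled circles mark genes on the probe's strand and open squares the opposite strand, and called genes are named. The 7 probes beside Cbln1 stand at the top of the VMH panel, where the gene differs by 5.31, and the Nr2f1 neighbours at the bottom of the Arc panel, where it differs by -2.94.

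Of the members within 100 kb of a marker gene, those called lay beside Cbln1. Of 46 marker genes 11 had such members, 82 in all, and 7 near Cbln1 were higher in VMH, 1 of them also lower in DMH. Those within 100 kb of Fezf1, a VMH transcription factor gene called higher in VMH, ranged from -0.30 to -0.0038 in VMH over 4 probes. Those near Kcna1, a potassium channel gene also called higher in VMH, ranged from -0.21 to 0.75 over 9 probes, and those near Agrp, a feeding neuropeptide gene 3.90 higher in Arc, from -0.94 to 1.07 in Arc over 18 probes. Members near Otp, a homeobox gene called higher in Arc, ranged from -0.30 to 2.39 there over 5 probes. Members near Prdm13, a transcription factor gene called higher in DMH, ranged from -0.88 to 1.68 there over 10 probes. None of the members near these 5 genes was called.

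None of the established noncoding genes fitted was called. Of 60 named long noncoding RNA genes 35 were on the array and 30 were fitted, and none passed the limma threshold in any nucleus, with 6, 6 and 1 at an unadjusted p under 0.05 in DMH, VMH and Arc. With normexp background correction 1 passed in Arc. Their median differences were 0.021, -0.031 and -0.0024, beside -0.027, -0.0016 and 0.027 for all probes. Single genes ranged wider: Six3os1, beside the gene of the forebrain factor Six3, was at 2.61 ± 0.63 (SE; adjusted p 0.140) in Arc and Sox2ot at 1.37 ± 0.33 (SE; adjusted p 0.143) in DMH. Foxd2os, with 1 of 3 VMH arrays well above background, was at least 3.04-fold up in DMH (adjusted p 0.186) and at least 2.28-fold down in VMH (adjusted p 0.197).

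MicroRNA precursors lay inside several regions. Probes of 12 names overlapped RefSeq hairpins by at least 20 bases, among them those of let-7c-2, let-7i, miR-101a, miR-410, miR-363 and miR-92-2, and none of these names was called. For let-7i and miR-101a the overlapping probes lie on the strand opposite the hairpin. A probe of chr15:85412264-85549139_F is shown with the letters of the let-7c-2 hairpin in capitals, including the let-7 family's shared start.
chr15:85537022-85537081, plus strand: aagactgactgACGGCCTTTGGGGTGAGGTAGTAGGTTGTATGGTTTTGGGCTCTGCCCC
Its differences were -0.11 in DMH, -0.21 in VMH and 0.32 in Arc, and the 9 fitted probes of its name had medians of 0.35, -0.22 and 0.13. Levels of mature microRNAs cannot be read from these values.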

How the data were processed

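RNA of pooled labelled neurons was measured on 8 arrays of 1 slide. Red-channel intensity per spot, deposited as Agilent Feature Extraction 11.5.1.1 wrote it with background removed (per the file headers), was used without any scaling between arrays by the authors, as were their spot flags. The 75th percentile signal was 1806 to 3042, no intergenic spot was saturated, and 2 or 3 arrays a nucleus limit the precision. The deposited value table of the series was not used: after 13 entries each column runs in constant steps (tolerance 1e-04), with medians of 10.1, 795, 2696, 198, -1711, 2335, -1671 and -432, and its scale, centring and direction stay unknown.

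Outlier spots were left out (52 members had some), spots of a probe were averaged, and probes well above background on all arrays of at least 1 nucleus were fitted with limma 3.58.1 in R 4.3.3 (with data.table at version 1.17.8; Python 3.11.15, pandas 2.3.3 and numpy 2.4.6), with 1 mean a nucleus, 5 residual degrees of freedom and 2.76 prior degrees of freedom. The median residual SD was 0.382. Of the 11747 members, 5 had a nucleus with no usable array and were not fitted. The script was tested on simulated data.

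The naming rule took, for each nucleus, up to 10 largest positive and 5 largest negative differences among called members whose arrays stood apart. It also took up to 6 regions with several calls, and up to 12 members within 100 kb of each marker gene. Not every member that the rule took is described above. Each array was left out in turn, and background correction, scaling, filters, variance model, probe choice and blocks were varied. Members, lists and rules were chosen with earlier results of these data known.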

Additional observations from a re-analysis of the deposited data

How the results depend on the processing

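Counts are given as higher and lower members in DMH, then VMH, then Arc, against 31 and 22, 29 and 19, and 8 and 20. Other scalings moved no count by over 1.5 times. Normexp background correction gave 41 lower in DMH, 41 lower in VMH and 28 higher in Arc, and a floor for dim spots gave 15 higher in Arc. A trended, robust variance gave 34 lower in VMH and 17 and 33 in Arc, and array weights 13 lower in DMH, 31 lower in VMH and 3 and 10 in Arc. With no filter on dim probes 12 and 7 passed in DMH, 8 lower in VMH and 6 lower in Arc, and with only probes well above background on all arrays 20 higher in DMH and 7 lower in Arc. With 1 value a name, fewer units were tested than the 11742 fitted members. The brightest probe per name then gave 5 and 9, 7 and 4, and 4 and 2. The mean per name (chosen after the data were seen, 4218 intergenic names) gave 10 and 11, 16 and 9, and 6 lower in Arc. A tested fold of at least 2 gave 3 and 0, 3 and 1, and 1 and 2. The slide row as a block gave 11 and 3 in DMH, 6 lower in VMH, and 4 and 9 in Arc. Shares of all probes under these settings are not given here, and the cause of these shifts was not tested.

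Leaving out each array gave 5 to 32 higher and 2 to 64 lower in DMH, 11 to 27 and 3 to 42 in VMH, and 3 to 65 and 8 to 34 in Arc. Of 53, 48 and 28 calls, 2, 3 and 1 stood in all alternatives run, and none reversed.

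Same-numbered arrays of different nuclei correlated at 0.018 to 0.115 in their deviations, and differently numbered arrays at -0.076 to 0.021. Deviations sum to 0 within a nucleus, so these values are tied to each other. Whether the replicate numbers mark paired samples was not tested. With the number as a replicate block, 4 and 2 passed in DMH, 7 and 7 in VMH, and 2 and 3 in Arc. Depth cannot be stated for arrays, and signals near background set only bounds.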
